A study of Mus musculus with 6 samples.

Results

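Transcription of 10 genes of the Polycomb repressive complexes was examined in PRO-seq data of muscle stem cells (MuSCs) with and without the histone methyltransferase gene Kmt5b. The genes were taken by symbol from the deposited table and comprise 4 genes of Polycomb repressive complex 2 (PRC2: Ezh1, Ezh2, Eed and Suz12) and 6 of Polycomb repressive complex 1 (PRC1: Bmi1, Ring1, Rnf2, Cbx2, Cbx7 and Cbx8). All 10 are among the 14546 genes listed, and all 10 are among the 12451 autosomal genes that passed the filter on low values and were tested. PRO-seq records where RNA polymerases are engaged, since these enzymes add biotin-labelled nucleotides to nascent RNA that is then captured and sequenced. The 3 Ctrl libraries came from Pax7CreERT/Suv4-20h1WT mice and the 3 Kmt5b sKO libraries from Pax7CreERT/Suv4-20h1KO mice, Suv4-20h1 being the earlier name of Kmt5b. Both genotypes carry the tamoxifen-inducible Cre that is driven from Pax7, a gene of muscle stem cells, so the deletion is confined by design to Pax7-expressing cells of adult mice. The cells were purified with magnetic beads and proliferated in culture. Polymerases were counted in the TSS region, which is the first 400 nt of a transcript, and in the gene body, which is the remainder. TSS values are named RPM here and are reads scaled within the TSS regions, not to all reads of a library. Gene body values are in TPM, which also divides by length. The pausing index is the TSS value divided by the gene body value. Because the cells were analysed in bulk, fewer cells that transcribe a gene and less transcription per cell cannot be told apart.

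PRC2 places methyl groups on lysine 27 of histone H3. EZH2 and EZH1 are its alternative catalytic subunits, of which EZH2 is the more prominent one in dividing cells and EZH1 persists in resting cells, while EED and SUZ12 hold the complex together and EED reads the mark. PRC1 attaches ubiquitin to histone H2A through the E3 ligases RING1 and RNF2 (RING1B), which pair with a PCGF protein such as BMI1. Canonical PRC1 carries a CBX subunit (CBX2, CBX7 or CBX8 among others) whose chromodomain binds the mark left by PRC2. In muscle stem cells these complexes are known for silencing genes of other lineages and of the differentiated muscle fibre, and PRC2 is linked to the maintenance of the proliferating state.

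The targeted gene was not lower in these values. Kmt5b gave 30.6, 35.4 and 38.5 TPM in the gene body of Ctrl against 37.8, 35.0 and 42.6 TPM in Kmt5b sKO (log2 fold change 0.14, adjusted p = 0.71 by limma with Benjamini-Hochberg adjustment). Its TSS region gave 87.3 to 102 RPM and 107 to 120 RPM, higher without overlap but not called (log2 fold change 0.27, adjusted p = 0.72), so these values do not check the labels. The listed genes carried 926904 to 3246052 reads per library in the TSS region and 7425419 to 16249142 in the gene body, with Kmt5b sKO replicate 2 the shallowest in both regions. Summed gene body values of 9 muscle stem cell markers ranged from 1352 to 2056 TPM in Ctrl and from 1626 to 2084 TPM in Kmt5b sKO. Other cell types left lower sums, with 122 to 203 and 145 to 155 TPM for the 7 of 10 fibroblast markers listed, 3.71 to 9.05 and 6.52 to 15.6 TPM for 5 of 8 endothelial markers, and 219 to 423 and 332 to 340 TPM for 3 of 9 immune markers, almost all of it Cd68, while Ptprc, Adgre1 and Csf1r are not listed. The 16 cell cycle markers summed to 822 to 1041 TPM in Ctrl against 493 to 564 TPM in Kmt5b sKO, and the 13 markers of myogenic differentiation to 2707 to 4947 and 5244 to 7003 TPM. For 8 markers of the mature muscle fibre the sums were 215 to 465 TPM in Ctrl and 487 to 944 TPM in Kmt5b sKO. The part of these shifts in the Polycomb values below was not tested.

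Of the 10 Polycomb genes, 0 passed an adjusted p under 0.1 in the gene body, 0 in the TSS region and 0 for the pausing index (limma), where 2.99%, 1.66% and 0.0% of all tested genes passed. In the gene body 8 of the 10 values were lower in Kmt5b sKO and 2 were higher, against 5747 lower and 6704 higher of all 12451 tested genes. The median log2 fold change of the 10 was -0.18 against 0.02 over all tested genes. All 4 PRC2 genes were on the lower side, but the genotypes overlapped for Ezh1 and Eed. An unadjusted p under 0.05 was reached by 4 of the 10 genes (Ezh2, Suz12 and Cbx7 lower, Cbx8 higher), against 15.9% of all tested genes. In 3 genes, again Ezh2, Suz12 and Cbx7, every Kmt5b sKO library lay below every Ctrl library, an order that 9.34% of tested genes had. In 0 genes did every Kmt5b sKO library lie above, against 12.0%. In the TSS region 1 gene, Ring1, had an unadjusted p under 0.05 (background 11.0%), 1 gene was higher without overlap (Ring1, background 10.2%) and 1 was lower without overlap (Cbx2, background 5.33%). The median TSS difference of the 10 genes was 0.12, against 0.08 over all genes.

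**Figure D1:**
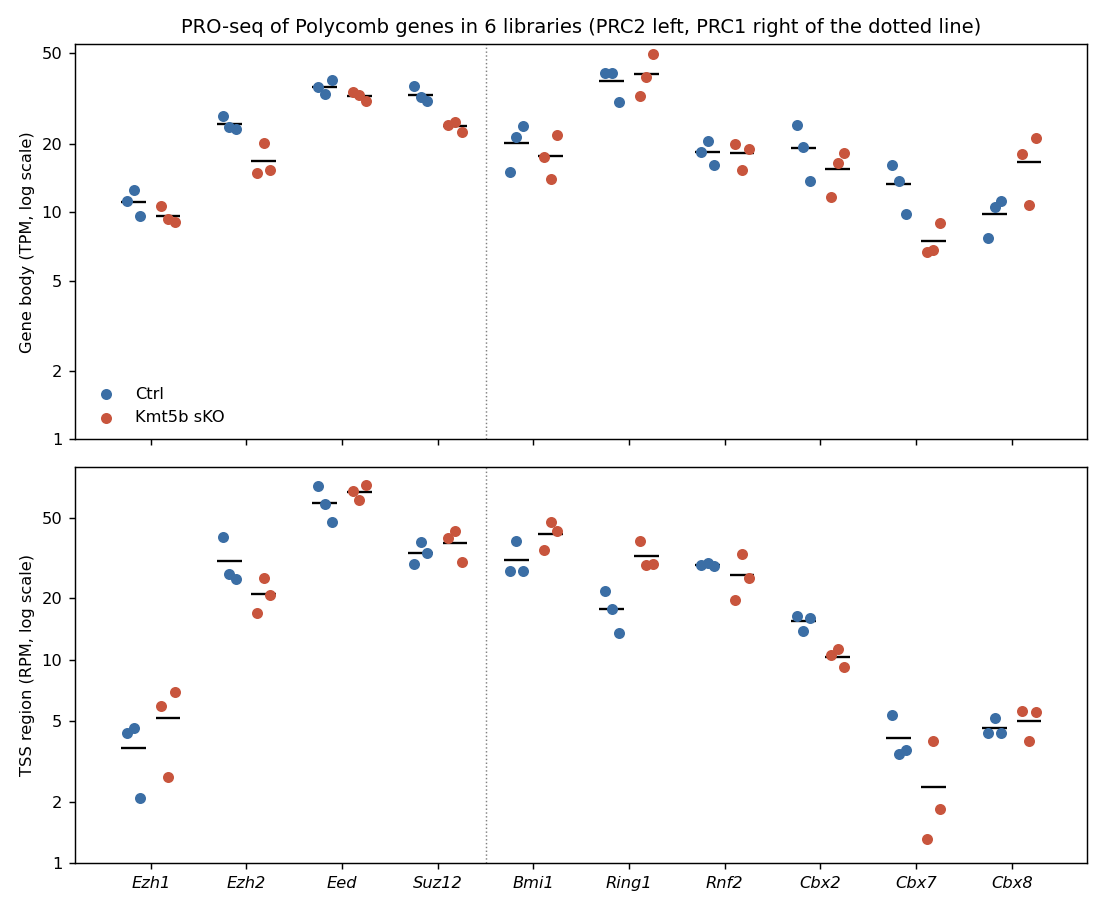
Gene body values (TPM, top) and TSS region values (RPM, bottom), both on log axes, of the 10 Polycomb genes, with 1 point per library (blue Ctrl, red Kmt5b sKO, replicates 1 to 3 from left to right) and a bar at the mean of 3. The red gene body points of Ezh2, Suz12 and Cbx7 lie below all blue points of the same gene, and the red TSS points of Ring1 lie above all blue ones.

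The sequences around the starts of 6 of these genes are shown because their values, or the lack of a difference between paired subunits, carry the results that follow. They are RefSeq promoters of build GRCm38.p6, which were found for 9 of the 10 genes (Cbx2 has no entry), and each run holds 250 bases before the start and the first 20 after it, written 5′ to 3′ in the direction of transcription. The transcripts in the table start 0 to 56 nt from these RefSeq starts. Capitals mark TTTGGCGC or TTTCCCGC, spellings of the site bound by E2F factors, the regulators of S-phase genes, which were searched on both strands of the window from 250 bases before to 50 bases after the start. The windows lie at chr11:101226444-101226713 on the minus strand (Ezh1), chr6:47595011-47595280 on the minus strand (Ezh2), chr11:79992856-79993125 on the plus strand (Suz12), chr17:34024661-34024930 on the minus strand (Ring1), chr15:79932627-79932896 on the minus strand (Cbx7) and chr11:119040894-119041163 on the minus strand (Cbx8).
Ezh1: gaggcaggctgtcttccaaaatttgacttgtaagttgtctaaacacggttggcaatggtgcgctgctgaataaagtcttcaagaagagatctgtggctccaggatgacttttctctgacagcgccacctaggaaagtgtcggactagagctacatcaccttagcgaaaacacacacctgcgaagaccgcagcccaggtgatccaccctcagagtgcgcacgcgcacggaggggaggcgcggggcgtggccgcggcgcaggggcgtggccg
Ezh2: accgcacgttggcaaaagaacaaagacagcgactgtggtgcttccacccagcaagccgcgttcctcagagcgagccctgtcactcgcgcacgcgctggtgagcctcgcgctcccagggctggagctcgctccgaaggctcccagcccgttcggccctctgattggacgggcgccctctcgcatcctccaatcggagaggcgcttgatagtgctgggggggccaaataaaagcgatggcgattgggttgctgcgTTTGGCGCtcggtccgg
Suz12: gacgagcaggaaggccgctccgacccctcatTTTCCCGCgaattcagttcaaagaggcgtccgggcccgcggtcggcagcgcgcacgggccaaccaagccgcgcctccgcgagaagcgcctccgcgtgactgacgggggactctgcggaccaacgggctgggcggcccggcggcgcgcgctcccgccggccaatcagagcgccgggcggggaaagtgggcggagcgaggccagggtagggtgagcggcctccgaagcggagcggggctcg
Ring1: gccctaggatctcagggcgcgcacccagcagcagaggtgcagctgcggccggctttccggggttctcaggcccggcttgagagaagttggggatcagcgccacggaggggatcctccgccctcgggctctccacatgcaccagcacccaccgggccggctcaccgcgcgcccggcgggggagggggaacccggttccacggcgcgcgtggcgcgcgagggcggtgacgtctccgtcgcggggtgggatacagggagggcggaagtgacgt
Cbx7: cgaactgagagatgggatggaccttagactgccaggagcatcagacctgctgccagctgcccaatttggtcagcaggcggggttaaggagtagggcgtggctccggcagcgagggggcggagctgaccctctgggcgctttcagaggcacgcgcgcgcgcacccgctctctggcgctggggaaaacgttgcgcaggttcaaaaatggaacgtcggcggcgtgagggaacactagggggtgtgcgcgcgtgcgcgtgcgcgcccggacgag
Cbx8: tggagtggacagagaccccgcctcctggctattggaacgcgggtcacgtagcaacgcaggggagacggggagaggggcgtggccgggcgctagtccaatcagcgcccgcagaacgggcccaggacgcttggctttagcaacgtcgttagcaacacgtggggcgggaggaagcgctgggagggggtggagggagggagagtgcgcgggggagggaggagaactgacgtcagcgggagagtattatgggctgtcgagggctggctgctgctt

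Of the 9 promoters, 2 held such a site. TTTGGCGC begins 3 bases after the Ezh2 start base and is present in 0.519% of 32544 mouse promoter windows of this length, and TTTCCCGC begins at -219 from the Suz12 start and is present in 1.08%. Either spelling occurs in 1.58% of windows. Both spellings hold a CG pair, and the windows were not matched to the 9 promoters for CG pairs, so these shares are no test of enrichment. CCAAT, searched on both strands, was found 3 times at Ezh2, 2 times at Cbx8 and 1 time each at Eed, Suz12 and Cbx7, and 37.4% of windows hold it. TATAAA, also searched on both strands, was found in 0 of the 9 windows and in 13.6% of all. The 9 windows held between 17 (Eed) and 41 (Suz12) CG pairs, against a median of 7 over all windows. These matches describe the letters of the windows and are not measured binding sites.

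Ezh2 gave lower gene body values in Kmt5b sKO without passing the main test, and the Ezh1 values overlapped. Ezh2 (chromosome 6, 47530139 to 47595030, minus strand) has 20 exons and a gene body of 64491 nt of which 4.11% is exonic. Its gene body held 26.3, 23.7 and 23.2 TPM in Ctrl against 14.9, 20.1 and 15.4 TPM in Kmt5b sKO, given here and below in the order of replicates 1 to 3. All Kmt5b sKO libraries were below all Ctrl libraries, with replicate 2 of Kmt5b sKO the nearest to them. The log2 fold change was -0.54 (SE 0.15, 95% interval -0.90 to -0.18, adjusted p = 0.15, limma), or 1.45-fold lower. The gene body values rested on 850 to 2482 reads per library. On reads recovered from the values edgeR gave an adjusted p of 0.087 and DESeq2 of 0.025, and 6.01% and 10.4% of all genes passed 0.1 by these tests. Under the other alternatives Ezh2 did not pass, with an adjusted p of up to 0.40 by limma. In the TSS region Ezh2 gave 40.2, 26.4 and 24.8 RPM in Ctrl against 17.1, 25.1 and 20.7 RPM in Kmt5b sKO, and the groups overlapped by Kmt5b sKO replicate 2 alone (log2 fold change -0.51, SE 0.28, adjusted p = 0.56). The pausing index was 1.24 ± 0.25 (SD, n = 3) in Ctrl and 1.25 ± 0.10 in Kmt5b sKO (log2 fold change 0.03, 95% interval -0.55 to 0.61).

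Ezh1 (chromosome 11, 101191115 to 101226463, minus strand) held 11.2, 12.5 and 9.57 TPM in the gene body of Ctrl against 10.6, 9.35 and 9.00 TPM in Kmt5b sKO. These groups overlapped, with a log2 fold change of -0.19 (95% interval -0.55 to 0.18, adjusted p = 0.65). Its TSS region held few reads, 18, 8 and 11 in Ctrl against 18, 4 and 15 in Kmt5b sKO, which came to 4.36, 4.60 and 2.08 RPM and to 5.90, 2.64 and 6.90 RPM. A difference in the TSS region was not detectable at this depth (log2 fold change 0.41, 95% interval -0.65 to 1.46).

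The ratio of Ezh2 to Ezh1 in the gene body, a measure of the balance between the catalytic subunits, was 2.36, 1.90 and 2.43 in Ctrl against 1.41, 2.15 and 1.71 in Kmt5b sKO. The groups overlapped, since the ratio of Kmt5b sKO replicate 2 lay within the Ctrl range. The means were 2.23 ± 0.29 and 1.76 ± 0.37 (SD, n = 3 each), with a log2 difference of -0.36 and p = 0.2 by a two-sided exact permutation test, whose smallest possible p with 3 libraries per genotype is 0.1. In the TSS region the ratio was 8.96 ± 3.1 in Ctrl against 5.13 ± 3.8 in Kmt5b sKO (exact permutation p = 0.3), with the few Ezh1 reads as its denominator.

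Among all genes the gene body values most like those of Ezh2 over the 6 libraries were those of Topbp1, Tctex1d2 and Dna2, each with a Pearson correlation of 0.99 on the log2 scale. For Ezh1 they were Tbcb, 4930579G24Rik and Aplp1, also at 0.99. These correlations rest on only 6 libraries, and 99 of 12450 genes reached 0.95 with Ezh2 and 40 with Ezh1. Like Ezh2, cell cycle markers were lower in Kmt5b sKO as a group. In the gene body 14 of 16 were lower without overlap (9.34% of all tested genes) and 10 of 16 were called lower (1.38% of all), with a median log2 fold change of -1.05. Over Kmt5b sKO replicates 1 to 3 these markers summed to 493, 552 and 564 TPM, while Ezh2 held 14.9, 20.1 and 15.4 TPM. The part of the cell cycle markers in the Ezh2 difference was not tested.

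Of the structural PRC2 genes, Suz12 gave lower gene body values in Kmt5b sKO without passing the main test, and the Eed values overlapped. Suz12 (chromosome 11, 79993106 to 80034123, plus strand, 16 exons) held 35.8, 31.9 and 30.7 TPM in Ctrl against 24.03, 24.9 and 22.4 TPM in Kmt5b sKO. The lowest Ctrl library was above the highest Kmt5b sKO library, and the spread within each genotype was small. The log2 fold change was -0.45 (SE 0.12, 95% interval -0.74 to -0.16, adjusted p = 0.14, limma), 1.37-fold lower. It passed 0.1 with edgeR (adjusted p = 0.069) and DESeq2 (0.011) on recovered reads, and also by limma without Ctrl replicate 3 (adjusted p = 0.095, log2 fold change -0.50). Of the 12451 tested genes these fits called 748, 1295 and 836. Under the other alternatives Suz12 did not pass, with an adjusted p of up to 0.38 by limma. The TSS region of Suz12 did not follow, with 29.5, 37.9 and 33.3 RPM in Ctrl against 39.7, 42.9 and 30.4 RPM in Kmt5b sKO (log2 fold change 0.15, 95% interval -0.37 to 0.67).

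Eed (chromosome 7, 89954654 to 89980983, minus strand, 12 exons) held 35.5, 33.2 and 37.9 TPM in the gene body of Ctrl against 33.8, 32.7 and 30.9 TPM in Kmt5b sKO. The groups overlapped and the log2 fold change was -0.13 (95% interval -0.40 to 0.15). It had the strongest TSS region of the 10 genes, with 71.2, 58.0 and 47.6 RPM in Ctrl against 67.2, 60.8 and 72.2 RPM in Kmt5b sKO (log2 fold change 0.19, 95% interval -0.28 to 0.67). Its first 400 nt are wholly exonic and noncoding in the listed transcript.

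In PRC1 the ligase genes Ring1 and Rnf2 had their clearest difference in the TSS region of Ring1. Ring1 (chromosome 17, 34020792 to 34024680, minus strand, 7 exons) had 21.8, 17.8 and 13.5 RPM in the TSS region of Ctrl against 38.4, 29.1 and 29.4 RPM in Kmt5b sKO. All Kmt5b sKO libraries were above all Ctrl libraries, at a log2 fold change of 0.86 (SE 0.28, 95% interval 0.27 to 1.46, adjusted p = 0.18, limma), 1.82-fold higher, and the adjusted p stayed between 0.18 and 0.61 under every alternative that was run. The gene body of Ring1 did not differ in the same way, with 41.0, 41.1 and 30.5 TPM in Ctrl against 32.5, 39.4 and 49.6 TPM in Kmt5b sKO (log2 fold change 0.10, 95% interval -0.36 to 0.56). Ring1 lies in a row of genes read in the same direction, as H2-Ke6, which encodes a steroid dehydrogenase, ends 1353 nt and Slc39a7, a zinc transporter, 3589 nt before its start, and the noncoding Gm26940 ends 286 nt before it. The TSS values of H2-Ke6 were 71.4 ± 16 RPM in Ctrl against 67.8 ± 9.1 RPM in Kmt5b sKO, and those of Slc39a7 47.6 ± 13 and 59.0 ± 9.0 RPM (SD, n = 3), both overlapping. Their gene bodies held 24.6 ± 5.9 against 29.9 ± 10 TPM and 62.8 ± 2.4 against 74.3 ± 15 TPM, also overlapping. Whether polymerases from these upstream genes reach the Ring1 region was not tested.

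Rnf2 (chromosome 1, 151469406 to 151500955, minus strand) held 18.4, 20.6 and 16.1 TPM in the gene body of Ctrl against 20.0, 15.3 and 19.0 TPM in Kmt5b sKO, and its log2 fold change was -0.02 (95% interval -0.40 to 0.35). Its TSS region held 29.3, 29.9 and 28.8 RPM in Ctrl against 19.7, 33.02 and 25.3 RPM in Kmt5b sKO, a wider spread in Kmt5b sKO than in Ctrl. Ring1 made up 65.5% to 69.0% of the summed gene body TPM of both ligase genes in Ctrl and 61.9% to 72.3% in Kmt5b sKO, so its share overlapped. This share was chosen after the values were seen and is given with no test.

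Bmi1, whose PCGF protein stimulates the ligases (chromosome 2, 18677018 to 18686629, plus strand, 10 exons), held 15.0, 21.4 and 24.01 TPM in the gene body of Ctrl against 17.5, 13.9 and 21.7 TPM in Kmt5b sKO (log2 fold change -0.18, 95% interval -0.71 to 0.36). In the TSS region the values were 27.4, 38.5 and 27.3 RPM against 34.8, 47.5 and 42.8 RPM, with only Ctrl replicate 2 within the Kmt5b sKO range (log2 fold change 0.43, SE 0.25, adjusted p = 0.60). Commd3, a gene of the COMM domain family, ends 787 nt before the Bmi1 start on the same strand. Its TSS region held 129, 110 and 135 RPM in Ctrl against 193, 141 and 174 RPM in Kmt5b sKO, higher without overlap but not called (log2 fold change 0.43, adjusted p = 0.47), and whether polymerases from Commd3 reach the Bmi1 region was not tested.

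**Figure D2:**
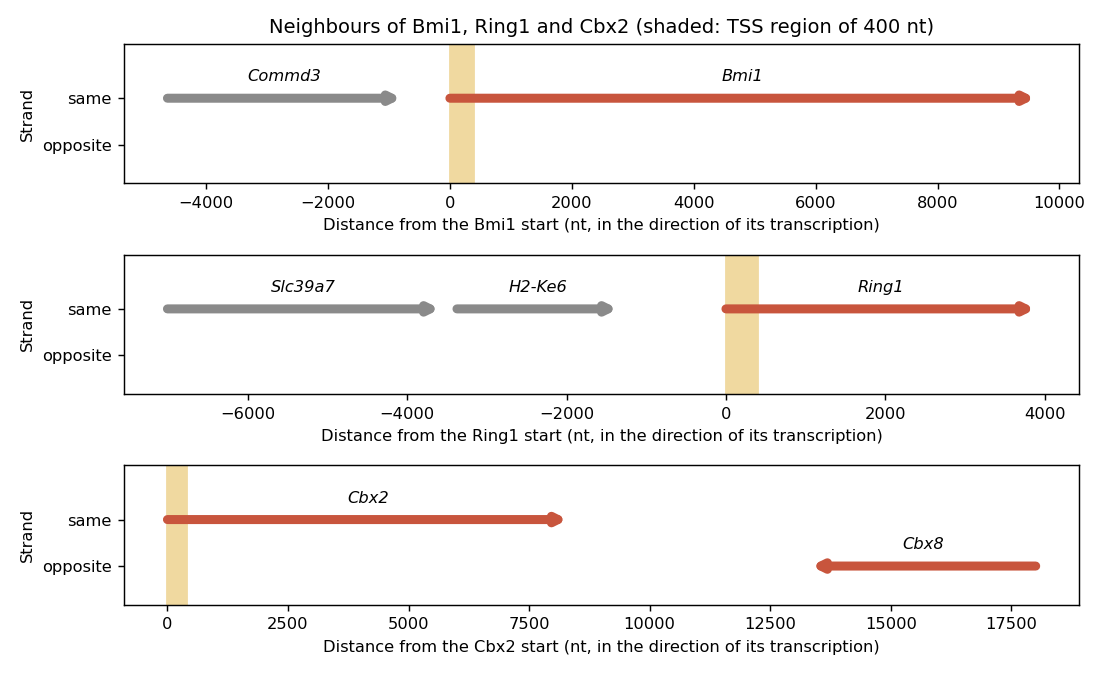
Positions of Bmi1, Ring1 and Cbx2 (red, with Cbx8 also red) and of neighbouring genes (grey), as the distance in nt from the start of the named gene in its direction of transcription, drawn by strand, with arrowheads at transcript ends and the TSS region of 400 nt shaded. Commd3 ends 787 nt before Bmi1 and H2-Ke6 1353 nt before Ring1 on the same strand, and Cbx2 and Cbx8 point at each other with 5035 nt between their ends.

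The chromodomain genes had gene body differences of opposite sign, none of which passed the main test. Cbx7 (chromosome 15, 79915807 to 79932652, minus strand, 7 exons) held 16.1, 13.7 and 9.83 TPM in the gene body of Ctrl against 6.67, 6.78 and 8.92 TPM in Kmt5b sKO. All Kmt5b sKO libraries lay below all Ctrl libraries, but Ctrl replicate 3 and Kmt5b sKO replicate 3 were close. The log2 fold change was -0.77 (SE 0.22, 95% interval -1.28 to -0.27, adjusted p = 0.14, limma), 1.71-fold lower and the largest negative difference of the 10. It passed 0.1 with edgeR (adjusted p = 0.087), with DESeq2 (0.014) and by limma without Ctrl replicate 3 (log2 fold change -0.96, adjusted p = 0.052). These fits called 748, 1295 and 836 of the 12451 tested genes. Under the other alternatives Cbx7 did not pass, with an adjusted p of up to 0.37 by limma. The TSS region of Cbx7 held 22, 6 and 19 reads in Ctrl and 4, 6 and 4 in Kmt5b sKO, or 5.33, 3.45 and 3.60 RPM and 1.31, 3.96 and 1.84 RPM, and its difference was not detectable at this depth (log2 fold change -0.77, 95% interval -1.88 to 0.33). At its 3′ end Cbx7 overlaps Apobec3 on the other strand by 100 nt, and the authors counted the sense strand only.

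Cbx8 (chromosome 11, 119036305 to 119040969, minus strand, 5 exons) had the opposite sign, with 7.70, 10.5 and 11.2 TPM in the gene body of Ctrl against 17.9, 10.7 and 21.1 TPM in Kmt5b sKO. Kmt5b sKO replicate 2 lay within the Ctrl range and the others were above it, so the groups overlapped (log2 fold change 0.70, SE 0.27, 95% interval 0.07 to 1.32, adjusted p = 0.27, limma). These values came from 30 to 86 reads per library, the fewest among the 10 gene bodies. Its TSS region gave 4.36, 5.17 and 4.36 RPM in Ctrl against 5.57, 3.96 and 5.52 RPM in Kmt5b sKO (log2 fold change 0.09, 95% interval -0.82 to 1.01).

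Cbx2 (chromosome 11, 119022962 to 119031270, plus strand, 5 exons) held 24.2, 19.3 and 13.6 TPM in the gene body of Ctrl against 11.6, 16.4 and 18.2 TPM in Kmt5b sKO, which overlapped (log2 fold change -0.29, 95% interval -0.87 to 0.30). In its TSS region the values were 16.5, 13.8 and 16.1 RPM in Ctrl against 10.5, 11.2 and 9.20 RPM in Kmt5b sKO. These groups did not overlap, but the difference was not called (log2 fold change -0.56, SE 0.32, adjusted p = 0.59). Cbx2 and its neighbour Cbx8 converge, with 5035 nt between their listed ends, so their strands are separate in the counts.

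Expressed as shares of the summed gene body TPM of Cbx2, Cbx7 and Cbx8, a measure chosen after the values were seen and given with no test, Cbx7 took 33.6%, 31.5% and 28.4% in Ctrl against 18.4%, 20.0% and 18.5% in Kmt5b sKO. Cbx8 took 16.03%, 24.1% and 32.2% in Ctrl against 49.5%, 31.7% and 43.8% in Kmt5b sKO, and Cbx2 50.4%, 44.4% and 39.4% and 32.0%, 48.4% and 37.7%. The share of Cbx7 did not overlap between genotypes, whereas those of Cbx2 and Cbx8 did.

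**Figure D3:**
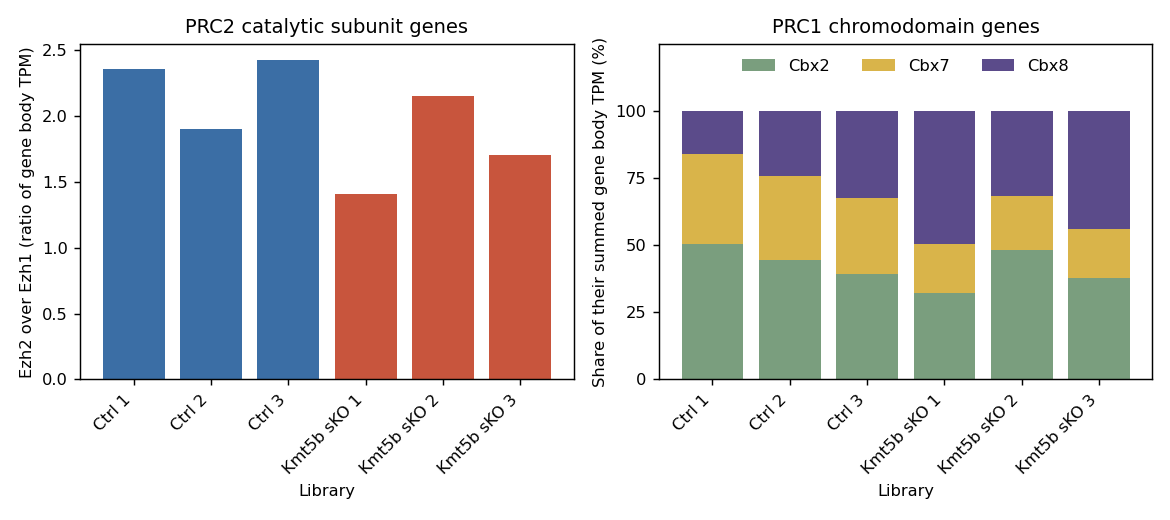
Left, the ratio of Ezh2 to Ezh1 gene body TPM in each library (bars from 0, blue Ctrl, red Kmt5b sKO). Right, the share (%) of Cbx2, Cbx7 and Cbx8 in their summed gene body TPM in each library, in which the Cbx7 segment is 28.4% to 33.6% in Ctrl against 18.4% to 20.0% in Kmt5b sKO.

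For the pausing index, 2 of the 10 genes (Suz12 and Ring1) had an unadjusted p under 0.05 against 3.86% of 11698 genes tested. This count became 1 with a replicate block, 1 with a pseudocount of 0.5, 3 without a trend in eBayes and 0 with reads per nt. It was also 0 in 3 of the 6 fits that left out 1 library. Without Kmt5b sKO replicate 2 the count was 1, but the gene was Ezh1 (unadjusted p = 0.039, limma), and neither Suz12 nor Ring1 was under 0.05. All 10 adjusted p were 0.9997. Without overlap, 3 genes were higher in Kmt5b sKO (Suz12, Ring1 and Bmi1, background 5.93%) and 1 was lower (Cbx8, background 3.09%). The index of Suz12 was 0.826, 1.19 and 1.09 in Ctrl against 1.65, 1.72 and 1.35 in Kmt5b sKO (log2 fold change 0.62, SE 0.26, 95% interval 0.03 to 1.21), with overlapping TSS values and lower gene body values. The index of Ring1 was 0.532, 0.434 and 0.441 in Ctrl against 1.18, 0.738 and 0.594 in Kmt5b sKO (log2 fold change 0.78, SE 0.34, 95% interval 0.02 to 1.54), with higher TSS values and overlapping gene body values. Bmi1 went from 1.83, 1.80 and 1.14 to 1.99, 3.42 and 1.97, and Cbx8 from 0.566, 0.492 and 0.391 to 0.311, 0.369 and 0.261. When both regions were taken as reads per nt, without their separate scaling, the genotypes overlapped in each of these 4 genes, for example 5.83, 4.54 and 10.03 against 11.3, 9.96 and 7.71 for Suz12.

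**Figure D4:**
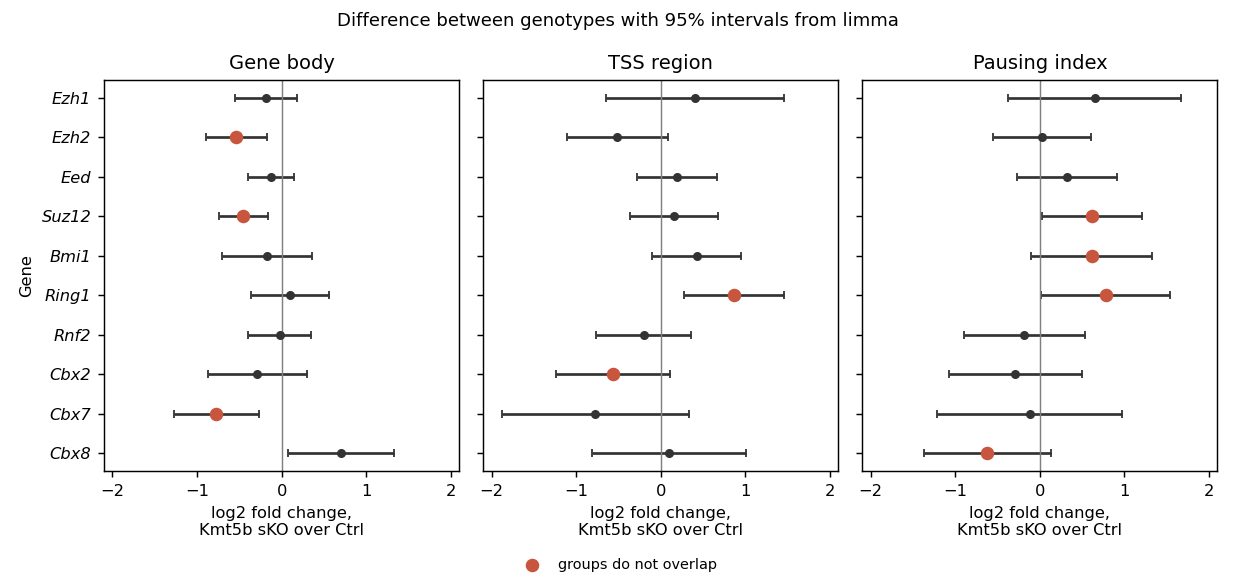
Log2 fold change of Kmt5b sKO over Ctrl (x axis) of each Polycomb gene in the gene body, the TSS region and the pausing index, with 95% intervals from limma over 3 libraries per genotype. Larger red points mark genes whose genotypes did not overlap, and in the gene body these are Ezh2 at -0.54, Suz12 at -0.45 and Cbx7 at -0.77.

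The levels of the 10 genes in Ctrl, compared per length in the gene body, ran from Ring1 (37.5 TPM), Eed (35.5) and Suz12 (32.8) through Ezh2 (24.4), Bmi1 (20.1), Cbx2 (19.1), Rnf2 (18.4) and Cbx7 (13.2) to Ezh1 (11.1) and Cbx8 (9.79 TPM), as means of 3 libraries. Of the neighbours in this order, Suz12 and Ezh2 had separate Ctrl ranges and all others overlapped. These means stood at the percentiles 82.2 (Ring1) and 33.3 (Cbx8) of the tested genes. In the TSS region, where all windows have the same length, Eed (58.9 RPM) stood above the rest, followed by Suz12, Bmi1, Ezh2 and Rnf2 (33.6 to 29.3 RPM), then Ring1 and Cbx2 (17.7 and 15.5), and last Cbx8, Cbx7 and Ezh1 (4.63, 4.13 and 3.68 RPM). The ranges overlapped between neighbours within each of these sets and were separate between the sets. The low TSS values of Ezh1, Cbx7 and Cbx8 placed their Ctrl pausing index at the percentiles 6.36, 6.14 and 11.0, while that of Eed stood at 53.2. Ring1, with the highest gene body mean, had a Ctrl pausing index at percentile 10.6.

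Other genes of the Polycomb system were counted from a list. Of 40 further genes (PRC2 accessory subunits, other PRC1 subunits, the PR-DUB deubiquitinase that removes the PRC1 mark, and H3K27 demethylases), 39 were listed and 33 tested, and 0 were called by limma in the gene body or the TSS region, where 2.99% and 1.66% of all tested genes were. In the gene body 18 were higher and 15 lower, against 6704 and 5747 of all 12451 tested genes. The median log2 fold change was 0.02, from -1.27 for Epop to 0.31 for Phc3, and 2 of the 33 had an unadjusted p under 0.05, against 15.9% of all. TSS values of 21 were higher and of 12 lower, against 7249 and 5202 of all tested genes. Their median was 0.10, from -1.08 for Epop to 0.66 for Phc1, and 1 of 33 (Scmh1) had an unadjusted p under 0.05, against 11.0% of all. Epop, a PRC2 cofactor that binds elongin, held 3.93, 4.59 and 2.93 TPM in the gene body of Ctrl against 0.47, 1.60 and 2.19 TPM in Kmt5b sKO, from 8 to 11 and 1 to 4 reads (adjusted p = 0.17). Phc3, a PRC1 subunit that polymerizes, held 21.1, 23.4 and 19.5 TPM in Ctrl against 27.4, 24.7 and 27.6 TPM in Kmt5b sKO (log2 fold change 0.31, adjusted p = 0.30).

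Genes that Polycomb complexes are known to silence in other cells were also counted. Of 18 such targets outside the Hox clusters, 13 were listed and 11 tested. In the gene body 0 were called, and 6 were higher and 5 lower, against 6704 and 5747 of all 12451 tested genes. The median was 0.32 against 0.02 over all tested genes, and single values ran from -0.81 for Lhx2 to 0.83 for Msx2. TSS values gave 1 call, and 8 were higher and 3 lower, against 7249 and 5202 of all tested genes. The median was 0.40 against 0.08 over all genes, of which 1.66% were called. The gene called was Msx2, a homeobox gene of limb and skull development, with 0.24, 0 and 0.76 RPM in the TSS region of Ctrl against 3.28, 4.62 and 3.22 RPM in Kmt5b sKO (log2 fold change on the scale of RPM + 0.5 of 2.42, SE 0.63, adjusted p = 0.082, limma). Every Kmt5b sKO library was above every Ctrl library, from 1, 0 and 4 reads in Ctrl and 10, 7 and 7 reads in Kmt5b sKO. Its Ctrl means were under the filter's minimum of 0.5 in both regions and it was tested only through its Kmt5b sKO values, so that a difference was built into its being tested. Likewise Lhx2 passed in the TSS region only through Ctrl (1.04 against 0.22 RPM). The call of Msx2 was kept in 4 of 15 alternatives and lost in the others, which include no filter, no trend, edgeR and DESeq2 (adjusted p from 0.069 to 0.29 over all 15). Its gene body rested on 1 to 7 reads per library, at 0.34 ± 0.24 and 0.98 ± 0.33 TPM (SD, n = 3).

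**Figure D5:**
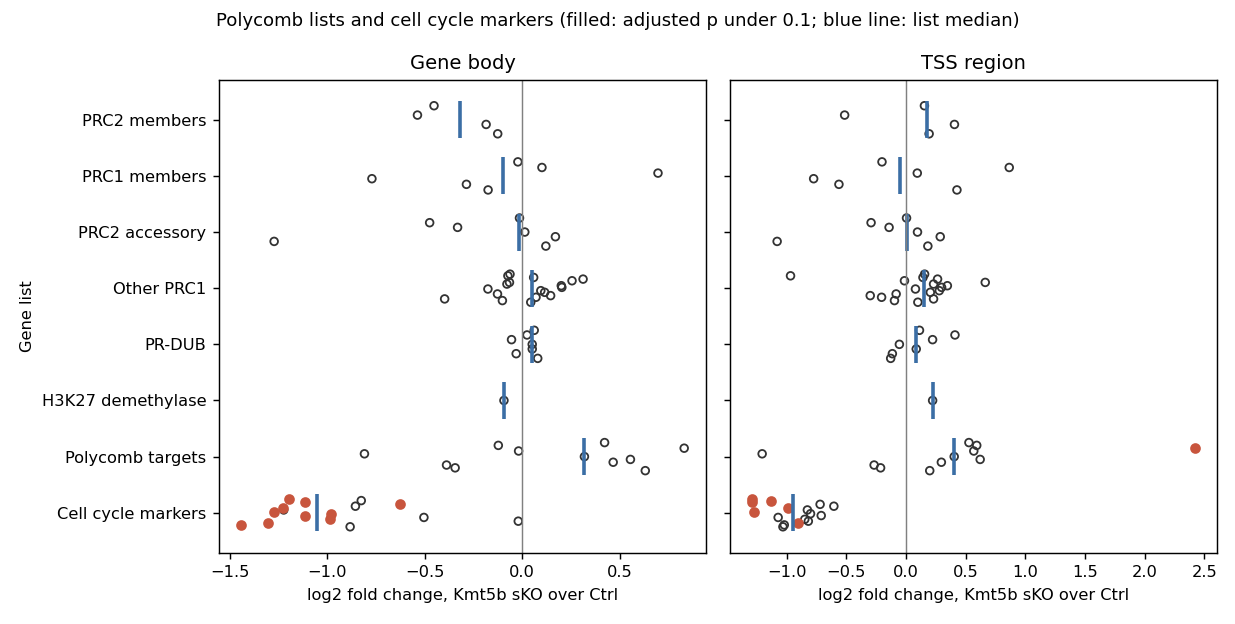
Log2 fold changes of Kmt5b sKO over Ctrl (x axis) of each tested gene in the Polycomb lists and in the cell cycle marker list, in the gene body (left) and the TSS region (right). Filled red points passed an adjusted p under 0.1 and blue lines are list medians, and in the Polycomb lists the single filled point is Msx2 in the TSS region at 2.42.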

How the data were processed

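PRO-seq libraries of 3 Ctrl and 3 Kmt5b sKO samples were used. The authors used Trimmomatic 0.39 for trimming, STAR 2.6.1d for alignment to GRCm38 (1 random position for a read with several matches) and Picard 2.18.16 for duplicates, and counted the sense strand. The table holds 1 isoform for each gene. TSS values were deposited as RPM, although headed as TPM, the unit for which the tests were planned. Gene body values were deposited as TPM. Genes on X and Y and genes with a mean under 0.5 in either region were left out. Values were tested as log2(value + 0.5) with limma 3.58.1 (eBayes with a trend, R 4.3.3), so that folds of low genes are understated, with Benjamini-Hochberg adjustment over all 12451 genes and calls below 0.1. For the pausing index no pseudocount was used, and it was tested where both values were above 0 in all 6 libraries.

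Whole reads were recovered from the spacing of the values (99.99% to 100% of TSS values, 99.9% to 100% of the values of 711 bodies under 2000 nt, within 0.15 read) and tested with edgeR 4.0.16 and DESeq2 1.42.0 as alternatives. The median tested gene had 35 to 107 TSS reads and 203 to 468 gene body reads per library, and 10.2% to 19.6% of genes had under 10 TSS reads, so that counting error adds to the spread between libraries. The 3 libraries per genotype are separate biological samples per the study's reporting summary. Exons are those of GENCODE vM21, whose ends matched the 10 listed transcripts. The scripts were tested on simulated data. Members and lists were chosen with earlier results of these data known, and the genes named were all 10 members, every called gene and the extremes of the other lists, and the 3 genes most correlated with Ezh1 and Ezh2. Scmh1 and the neighbouring genes were named after their values were seen. Results for 1 further gene are not given here.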

Additional observations from a re-analysis of the deposited data

How the results depend on the processing

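Among the 10 Polycomb genes 3 were called in the gene body by edgeR and 3 by DESeq2 on recovered reads (Ezh2, Suz12 and Cbx7 each time), and leaving out 1 library in turn gave 0 to 2. Under every alternative 0 of the 10 were called in the TSS region or for the pausing index. Over all genes, the 372 called in the gene body became 748 with edgeR, 1295 with DESeq2, 1 at an adjusted p under 0.05 and 0 with a replicate block, and 0 to 836 with 1 library left out (0 when Ctrl replicate 1 or any single Kmt5b sKO library was dropped, 836 without Ctrl replicate 3). The 207 called in the TSS region became 64 at an adjusted p under 0.05, 0 without the filter on low values, 0 without a trend and 0 with the block, and 1 to 408 with 1 library left out. For the pausing index the 0 called became 1 with a pseudocount of 0.5 and 9 with reads per nt. Causes were not tested.

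After the genotype mean of each gene was subtracted, same-numbered libraries of opposite genotype correlated at -0.15, -0.17 and -0.33 in the gene body. Libraries with different numbers gave -0.074 to 0.23. Subtracting a mean of 3 libraries ties these correlations to one another, so they show no pairing by replicate number but cannot settle it. With the replicate block the members with an unadjusted p under 0.05 were 4 in the gene body and 1 in the TSS region, as without it, and 1 for the pausing index in place of 2. Some values near 0 turned sign with 1 library left out. In the gene body these were Ring1 (-0.054 to 0.25) and Rnf2 (-0.11 to 0.091), and for the pausing index Ezh2 (-0.069 to 0.19), Rnf2 (-0.49 to 0.079) and Cbx7 (-0.63 to 0.15). The Ezh2 pausing index was also -0.020 with reads per nt. All other differences of members kept their direction under each alternative. The log2 difference of the Ezh2 to Ezh1 ratio lay between -0.51 and -0.21 with 1 library left out and was -0.98 in the TSS region. Requiring 10 reads in both regions left 9367 genes for the pausing index and no value for Ezh1, Cbx7 and Cbx8.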
